A study of Mus musculus with 24 samples.

Results

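Fibroblasts without a detected *Sox9* transcript were examined in mouse Panc02 pancreatic tumors treated with a neoantigen vaccine and checkpoint antibodies. Members were barcodes with at least 1000 UMIs and under 10% mitochondrial UMIs that carried at least 1 UMI of *Pdgfra* or *Pdgfrb* and at least 10 UMIs of *Col1a1* plus *Col3a1* per 10000. They also had no UMI of *Sox9*, *Ptprc* or *Pecam1* and at most 1 UMI of *Krt8* plus *Krt18*. This rule found 383 cells among the 120912 within the UMI and mitochondrial limits (0.317%), and among 144994 barcodes deposited.

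Panc02, a mouse pancreatic ductal adenocarcinoma line, was implanted under the skin of wild-type male C57BL/6 mice aged 6 to 7 weeks, and tumors were taken on day 38. PancVAX peptides (50 ug of each peptide) were given on days 12 and 19, by the study's methods with the adjuvant AddaVax and a STING agonist, with PBS in place of vaccine in the other mice. Anti-PD-1 (100 ug) was given 2 times a week from day 12 and anti-CTLA-4 (100 ug) on days 15 and 22. The study's methods name isotype antibodies as the control for both. The 8 groups were isotype control, Anti-PD-1, Anti-CTLA-4, Anti-PD-1 + Anti-CTLA-4, PancVAX, PancVAX + Anti-PD-1, PancVAX + Anti-CTLA-4 and all 3 agents together (the triple treatment). Each group gave 1 whole-tumor library and 1 library enriched on a Percoll density gradient, 16 in all, and each library pooled the mice of its group. The tumors grew under the skin and not in the pancreas, and differences between mice of a group cannot be seen.

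Fibroblasts make the collagen and proteoglycan matrix of a tumor and secrete chemokines that position immune cells. In pancreatic tumors they are commonly described as contractile myofibroblasts, as inflammatory fibroblasts that secrete cytokines, and as antigen-presenting fibroblasts, while *Pi16* and *Dpt* mark adventitial fibroblasts of normal connective tissue. Pericytes, the contractile cells on small vessels, share *Pdgfrb* and part of the collagen program with fibroblasts. SOX9 is a transcription factor of cartilage and of pancreatic ducts.

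Libraries held 4881 to 10640 cells within limits and 77132398 to 176233225 UMIs in all. Members numbered 6 to 47 per library, with a median of 14306 UMIs and 3592 genes per cell. The shallowest members were those of the PancVAX + Anti-PD-1 Percoll library (median 4682 UMIs), which was also the shallowest library overall. Of the members 116 (30.3%) lay within the upper UMI and gene limits that the study set, against 47.4% of all cells, and doublets were not called. Pools, the whole-tumor and Percoll libraries of a treatment summed, held 38 members (isotype control), 19 (Anti-PD-1), 69 (Anti-CTLA-4), 52 (Anti-PD-1 + Anti-CTLA-4), 57 (PancVAX), 37 (PancVAX + Anti-PD-1), 68 (PancVAX + Anti-CTLA-4) and 43 (triple treatment). The 16-base barcodes of 4 members (1.04%) also occurred in the other library of the same treatment, against 0.979% of all cells, and 2 members shared a barcode with another member.

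The label was checked on genes that the rule did not use. Of 3 comparison sets, the *Krt8*/*Krt18* set was 62502 cells with at least 2 UMIs of *Krt8* plus *Krt18* and no *Ptprc* UMI. Cells meeting the rule at any *Sox9* count were kept out of it. The others were 43460 cells with *Ptprc* UMIs and 651 endothelial cells with *Pecam1* and *Cdh5* UMIs and no *Ptprc* UMI. Decorin (*Dcn*), a small matrix proteoglycan, reached 3357 CPM (UMIs of the gene per 1000000 UMIs of the summed cells) over the members. In the 3 sets, in that order, it was at 257, 96.2 and 53.7 CPM. *Col1a2*, the partner chain of *Col1a1* in type I collagen, reached 8658 CPM against 9.25, 26.0 and 56.7. *Postn*, encoding the matrix protein periostin, reached 4307 CPM against 4.95, 12.2 and 41.4, and *Lum* (lumican) 464 CPM against 37.2, 15.2 and 4.3. These are properties of cells chosen by collagen counts and were not tested. T cell, macrophage and endothelial markers were low: the summed level of the T cell list was 47.5 CPM in members and 3807 in *Ptprc*+ cells, that of the macrophage list 259 against 16180, and that of the endothelial list 63.7 against 5757. Other lists were less far apart or higher in members. The epithelial tumor cell list was at 36.0 CPM against 196 in the *Krt8*/*Krt18* set, and the keratinocyte list at 43.3 against 36.1. The Schwann cell list was at 127 CPM against 12.5 in that set and 25.1 in *Ptprc*+ cells. No member of the 141 in Percoll libraries carried a T cell receptor contig, against 32.4% of the *Ptprc*+ cells of those libraries. The rule had left out cells with a *Ptprc* or *Pecam1* UMI, and the *Ptprc* and endothelial sets were chosen by those genes. Low T cell, macrophage and endothelial levels and the absence of contigs were therefore largely set by the choice of cells. The label held for most members but not for 45 cells led by *Rgs5*, described with the clusters.

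Many members lay near the receptor threshold and few near the collagen threshold. The receptor condition alone selected little, as 51557 of the 120912 cells within limits (42.6%) met it, and the collagen gate then left 686. *Pdgfra* UMIs were present in 277 members (72.3%), *Pdgfrb* UMIs in 295 (77.0%) and both in 189 (49.3%), and 76 members rested on a single receptor UMI. The lowest member had 10.1 collagen UMIs per 10000 and the nearest cell outside had 9.71, with 25 members between 10 and 20 and 25 cells between 5 and 10. A single keratin UMI was present in 60 members, and 7 otherwise matching cells lay just outside with 2.

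Absence of *Sox9* UMIs was less common in deeper cells. Among all 486 cells meeting the rule at any *Sox9* count, 95.5% had no *Sox9* UMI below 5000 UMIs, and 62.6% at 20000 UMIs or more. The 103 cells with *Sox9* UMIs had a median of 25521 UMIs, and 56 of them carried only 1 *Sox9* UMI. Their matrix genes stood beside those of the members at 1852 against 3357 CPM for *Dcn*, 406 against 464 for *Lum*, 8996 against 8658 for *Col1a2* and 4678 against 4307 for *Postn*. Elastin (*Eln*) was at 79.7 against 298 CPM and *Efemp1*, an elastic fiber gene, at 85.02 against 211. *Rgs5*, a pericyte gene, was at 662 CPM in members and had no UMI in the *Sox9*+ set. Of the cartilage genes, *Col2a1* had no UMI in members and *Acan* was at 1.09 CPM. The whole list of 20 *Sox9*-associated cartilage-type genes was not summed in the *Sox9*+ set, so it cannot set the members apart from those cells. It came to 1026 CPM in members, against 471.5 in the *Krt8*/*Krt18* set, 158 in the *Ptprc* set and 98.6 in endothelial cells, and included the matrix proteoglycans *Ogn* at 249 and *Prelp* at 195 CPM. Members are therefore cells without a *Sox9* UMI at their depth, not cells shown to lack the transcript. Over the pools *Sox9* was at 402 to 740 CPM in the *Krt8*/*Krt18* set, 107 to 268 in the *Ptprc* set and 50.1 to 156 in endothelial cells. The part of other cells' RNA in the *Sox9* UMIs of the *Sox9*+ set was not tested.

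The first comparison asked whether treatment altered the share of these fibroblasts in whole tumors. With anti-PD-1 the share was 0.311% ± 0.127 (SD, n = 4 libraries) and without it 0.498% ± 0.0976 (n = 4; exact permutation test, two-sided, *P* = 0.0857, adjusted over the 3 agents 0.257). The lowest shares were in Anti-PD-1 (0.198%, 95% exact binomial interval 0.0987 to 0.353) and PancVAX + Anti-PD-1 (0.204%, 0.111 to 0.341), and the highest in PancVAX (0.579%, 0.402 to 0.809) and Anti-CTLA-4 (0.562%, 0.410 to 0.751). The 2 other anti-PD-1 libraries, both with anti-CTLA-4, lay at 0.415% and 0.427%, above isotype control at 0.365%, so the groups overlapped. In each of the 4 pairs matched for the other agents the anti-PD-1 library was lower. The closest pair was the triple treatment and PancVAX + Anti-CTLA-4 (0.427% against 0.484%). The pairing was not tested. With PancVAX the share was 0.424% ± 0.160 against 0.385% ± 0.150 (n = 4 each, exact permutation *P* = 0.657). That difference of 0.0386 percentage points became −0.0238 without the Anti-PD-1 library, −0.0134 without PancVAX and 0.112 without PancVAX + Anti-PD-1, so its direction was not fixed. With anti-CTLA-4 it was 0.472% ± 0.0671 against 0.336% ± 0.180 (n = 4 each, exact permutation *P* = 0.229, adjusted 0.343), a difference of 0.136 percentage points that became 0.217 without the PancVAX library (exact permutation *P* = 0.0571) and 0.0893 without the Anti-PD-1 library (*P* = 0.457, exact permutation). The difference was 0.0751 with both libraries of a treatment summed and 0.0532 under the study's upper limits. No agent's difference passed the test. With 4 against 4 libraries the smallest two-sided exact *P* is 0.0286, which for a single agent adjusts to 0.0857 over the 3, so 1 agent alone could not have passed after adjustment. The intervals cover counting error only.

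**Figure D1:**
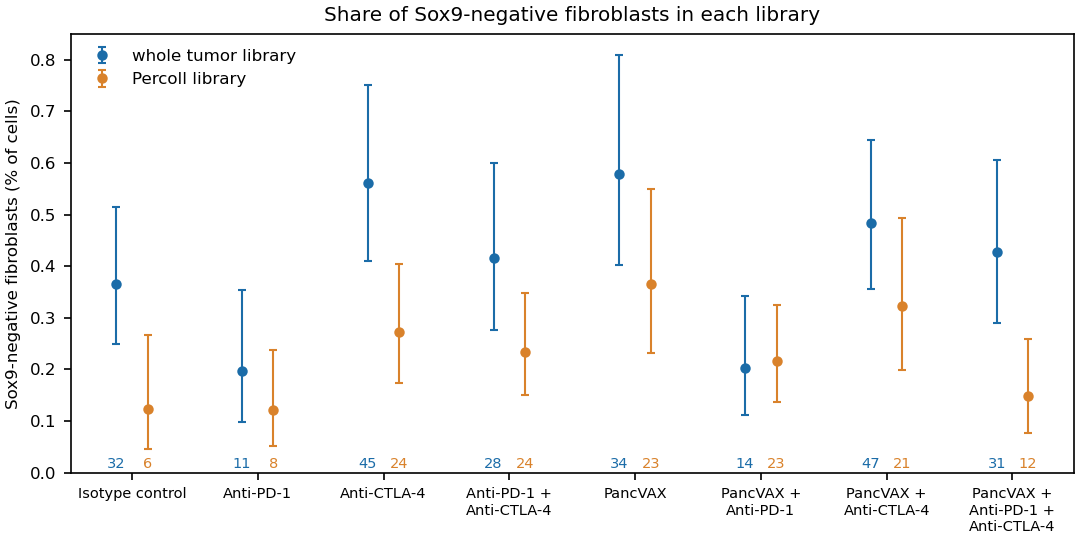
Percent of cells within limits that were Sox9-negative fibroblasts (y axis) in each of 16 libraries, by treatment (x axis) and preparation (color), with 95% exact binomial intervals and the number of member cells. Percoll libraries lay below whole-tumor libraries in 7 of 8 treatments, and whole-tumor shares ran from 0.198% to 0.579%.

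Percoll libraries, meant to be enriched in immune cells, held a smaller share of these fibroblasts. Their share was 0.225% ± 0.0919 in Percoll and 0.404% ± 0.145 in whole-tumor libraries (n = 8 each), a paired difference of −0.179 percentage points (exact paired permutation test, two-sided, *P* = 0.0156). It was lower in 7 of 8 treatments, the exception being PancVAX + Anti-PD-1 (0.216% in Percoll against 0.204%). Under the study's upper UMI and gene limits the difference was −0.141 percentage points (exact paired permutation *P* = 0.0547), higher in Percoll in 2 of 8 treatments. An enrichment of immune cells was not seen in the counts. *Ptprc*+ cells made up 30.7% to 40.1% of cells in Percoll and 28.6% to 43.7% in whole-tumor libraries. The *Krt8*/*Krt18* set made up 48.0% to 61.2% and 40.2% to 60.4%. The preparations were also separate sequencing batches, so gradient and batch cannot be told apart.

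Among fibroblasts of the rule at any *Sox9* count, the *Sox9*-negative part of whole-tumor libraries was 80.7% ± 6.12 with PancVAX and 83.9% ± 7.07 without (n = 4 each; exact permutation *P* = 0.60). That difference, −3.17 percentage points, was smaller than the spread between libraries. It turned to 1.45 with both libraries of a treatment summed and to 3.46 under the study's upper limits. With every cell thinned to 1000 UMIs the parts were 98.0% ± 2.54 and 98.5% ± 1.69 (exact permutation *P* = 0.829, n = 4 each). *Sox9* was at 12.6 to 33.3 CPM over depth classes of these cells. Thinning therefore left 94.7% to 100% of cells per whole-tumor library without a *Sox9* UMI, and this comparison could show little difference in any case.

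Clustering the 383 members gave 6 clusters, each found in 14 or 15 of the 16 libraries. Their leading genes chose them and are a description without a test. Each gene is given as CPM over the cluster's cells, beside the level over the other members.

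The largest cluster held 102 cells (26.6%) and was led by *Mmp13* (collagenase 3), *Crabp1*, *Cd74*, *Cxcl9* and *Igfbp3*. *Mmp13* was at 197 CPM against 10.5, from UMIs in 13 of the 102 cells, so the name marks a leading gene and not a gene of every cell. *Cd74*, the invariant chain of MHC class II, was at 404 CPM against 54.2, and *Cxcl9*, an interferon-induced T cell chemokine, at 565 against 112. The antigen-presenting list had 3 of 5 markers raised, 2 of them among the 10 leading genes. Macrophage markers moved with them: their sum was 564 CPM, the highest of the 6 clusters, and 36 of the 102 cells had UMIs of at least 2 macrophage genes. The part of macrophage RNA in these class II values was not tested, and the cluster was left without a cell type name.

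The inflammatory fibroblast-like cluster held 77 cells (20.1%) and raised all 8 inflammatory markers, with *C3* and *Cxcl12* among its 10 leading genes. *C3*, a complement component, was at 2774 CPM against 304, and *Cxcl12*, a chemokine that retains CXCR4+ cells, at 803 against 85.9. *Dcn* reached its highest level here, 9973 CPM, and lay between 7041 and 12075 in all 8 pools. *Acta2*, smooth muscle actin, was at 13.3 CPM against 2617. The acute-phase genes *Saa3*, *Lcn2* and *Hp* were also among the leading genes, but *Saa3* came from 10 cells. Of the stress and immediate early list, 12 of 16 genes were raised by over 0.5 on the log2 scale in this cluster, as were 5.21% of all genes.

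The *Pi16* cluster held 67 cells (17.5%). All 7 adventitial markers were raised, with *Pi16* at 2504 CPM against 582 and *Dpt* (dermatopontin) at 1021 against 353. The inflammatory fibroblast-like cluster also raised 6 of the 7, and the longer adventitial list of 12 genes summed to 16409 CPM there and to 15909.9 CPM in the *Pi16* cluster. None of the 7 markers was among the 10 leading genes of the *Pi16* cluster, which were headed by *Krtdap*, *Igfbp5* and *Dmkn*. *Krtdap* and *Dmkn* are known from keratinocytes, and *Krt5* and *Krt14* had no UMI here. *C3* was at 1193 CPM, so the complement gene was shared with the inflammatory fibroblast-like cluster, while *Cxcl12* was at 73.3.

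The *Cnn1* cluster held 56 cells (14.6%) and had the highest collagen. *Col1a1* was at 23651 CPM against 10010, and 12 of 14 fibrillar and associated collagens were raised by over 0.5 on the log2 scale, as were 9.37% of all genes. *Acta2* was at 5013 CPM against 1764, and *Lrrc15*, a marker of TGF-β-driven myofibroblasts, at 1070 against 195. Of 8 myofibroblast markers 7 were raised, but the smooth muscle genes *Cnn1* and *Actg2* led the list with the granzymes *Gzmd*, *Gzme* and *Gzmc*, so no name was given. *Dcn* was at 702 CPM here, which set high collagen and high decorin apart.

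The *Rgs5* cluster was pericyte-like and went against the fibroblast label. Its 45 cells (11.7%) raised all 7 pericyte markers, with *Rgs5*, a regulator of G protein signaling, at 6583 CPM against 18.8. They also raised 5 of 8 myofibroblast markers and all 4 smooth muscle markers, as the *Cnn1* cluster did for the latter. *Pdgfrb* was at 650 CPM against 160, while *Pdgfra* was at 4.77, *Dcn* at 102 and *Lum* at 4.77 CPM. *Col1a1* was at 3558 CPM against 12699, the lowest of the 6 clusters. These cells met the rule through *Pdgfrb* and a moderate collagen level.

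The cycling cluster held 36 cells (9.40%) and raised all 4 cycling markers. Its median of 27796 UMIs was the highest of the clusters, and it had no cell in the Anti-PD-1 pool. At a lower clustering resolution the *Mmp13* and *Cnn1* clusters joined and 5 clusters remained, and at a higher one 10 formed, with the *Cnn1*, *Rgs5* and cycling cells each kept whole.

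**Figure D2:**
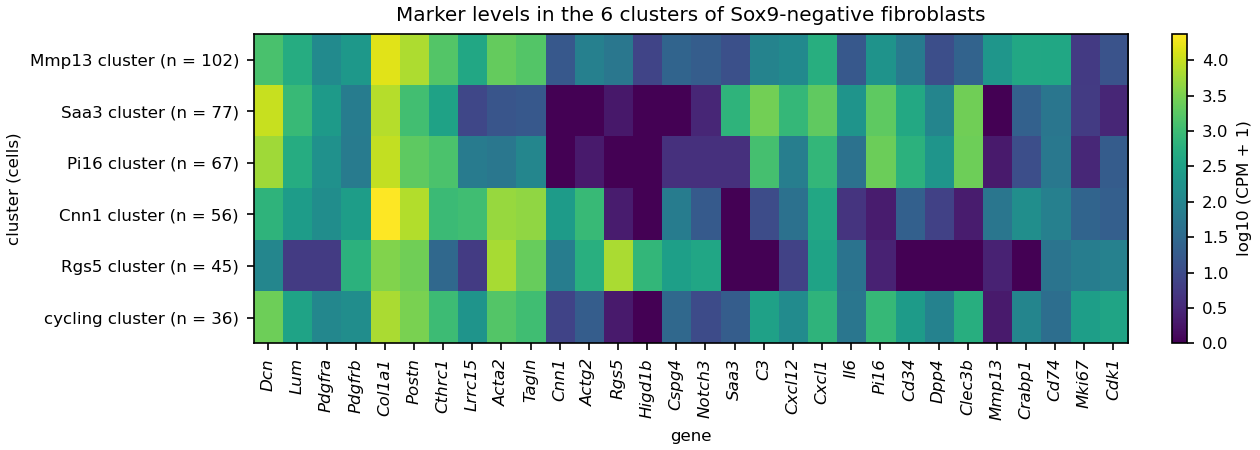
Level of 30 marker genes (columns) in the 6 clusters of Sox9-negative fibroblasts (rows) as log10(CPM + 1). *Rgs5* was at 6583 CPM in its own cluster, *Dcn* was highest in the Saa3-led inflammatory fibroblast-like cluster (9973 CPM) and *Col1a1* in the Cnn1 cluster (23651 CPM).

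Pools differed in their mix of clusters, given here without a test because the clustering used the same genes. The *Mmp13* cluster made up 29.5% ± 4.19 of the members with PancVAX and 21.7% ± 4.41 without (n = 4 pools each), and the *Cnn1* cluster 11.3% ± 5.70 against 20.04% ± 9.48. The PancVAX + Anti-PD-1 pool stood apart, with 1 of 37 cells in the *Pi16* cluster and 9 (24.3%) in the *Rgs5* cluster, which lay between 7.35% and 13.2% of the other pools.

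**Figure D3:**
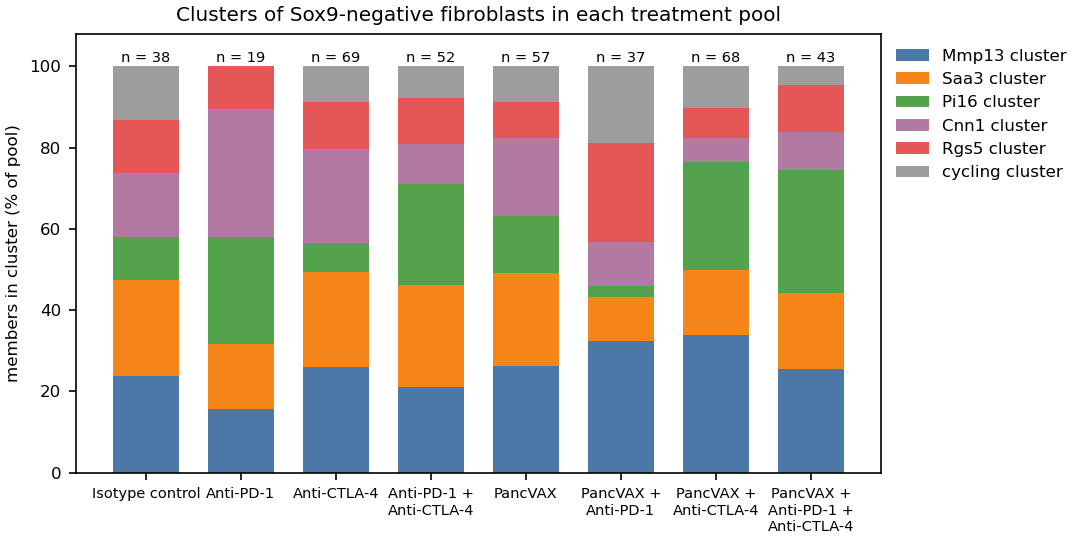
Percent of members in each of 6 clusters (stacked bars, y axis) for the 8 treatment pools (x axis), with the number of members above each bar. The PancVAX + Anti-PD-1 pool had 24.3% in the Rgs5 cluster and 2.70% in the Pi16 cluster, and the Anti-PD-1 pool had none in the cycling cluster.

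Next, UMIs of the members were summed by pool and tested for each agent over 8 pools, 4 with and 4 without it. Values for single genes are CPM scaled by the trimmed mean of M values (TMM), and list sums are unscaled CPM. By edgeR's quasi-likelihood test with Benjamini-Hochberg adjustment, 0 of 8033 genes (0%) passed an adjusted *P* of 0.05 with a log2 fold change beyond 0.5 for PancVAX, and likewise 0 (0%) for anti-PD-1 and 0 (0%) for anti-CTLA-4. At an unadjusted *P* under 0.05 there were 439 genes (5.46%) for PancVAX, 422 (5.25%) for anti-PD-1 and 375 (4.67%) for anti-CTLA-4. DESeq2 called 7 genes for PancVAX (among them *Actg2* and *Tnn* lower and *Myoc*, *Tnfaip6*, *Cxcl3* and *Cxcl14* higher), 3 for anti-PD-1 (*Myoc* and *Cox4i2* higher, *Itm2a* lower) and 1 for anti-CTLA-4 (*Cxcl14* lower). Pools with and without the agent did not overlap for 271 genes (3.37%), 251 (3.12%) and 283 (3.52%). The 3 comparisons divide the same 8 pools in different ways. By edgeR none of the values for agents below is a called change, and genes outside the named-gene rule were chosen after their values were seen.

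With PancVAX the type I collagen chain *Col1a2*, a gene outside the rule, was at 7464 ± 1016 CPM and without it at 10110 ± 728 (n = 4 pools each), with groups that did not overlap. It was the only 1 of 14 collagens tested of which this was so, against 3.37% of all genes. Of the 14, 3 were lower and 1 higher at an unadjusted *P* under 0.05, against 5.46% of all genes in either direction. The median log2 fold change was −0.11 (range −0.45 to 1.39). *Pdgfra*, the receptor for PDGF that most fibroblasts carry, and *Col1a1* were used by the rule, so their levels are a description with no test. *Pdgfra* was at 167, 148, 147 and 154 CPM in the PancVAX, PancVAX + Anti-PD-1, PancVAX + Anti-CTLA-4 and triple-treated pools (154 ± 9.31), and between 102 and 124 in the 4 pools without vaccine (115 ± 9.28). *Col1a1* was at 10920, 9039, 9975 and 11940 CPM in the same order with vaccine, and at 13810, 14600, 14070 and 11920 CPM in isotype control, Anti-PD-1, Anti-CTLA-4 and Anti-PD-1 + Anti-CTLA-4, so its groups overlapped at 1 pool of each. *Postn* was at 4885 ± 746 CPM with and 3879 ± 715 without vaccine, and *Fap*, a surface protease of activated fibroblasts, at 90.1 ± 9.05 and 68.8 ± 19.9, both with overlapping groups. Of 20 matrix glycoproteins and proteoglycans tested, 2 were higher and 3 lower at an unadjusted *P* under 0.05, against the same 5.46% of all genes. Their median log2 fold change was −0.0024. *Dcn* ranged from 2643 to 4094 CPM over the 8 pools with both groups interleaved.

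Of the contractile list, 15 genes were tested and 4 had an unadjusted *P* under 0.05, all lower with PancVAX, against 5.46% of all genes in either direction, and the list's median log2 fold change was −0.42 against −0.0018 over all genes. *Actg2*, γ-smooth muscle actin, was at 133, 57.6, 36.7 and 30.5 CPM with vaccine and at 248, 136, 505 and 345 CPM without (log2 fold change −2.31, edgeR adjusted *P* = 0.482). Its groups did not overlap but lay next to each other at PancVAX and Anti-PD-1. The 56 cells of the *Cnn1* cluster, led partly by *Actg2*, made up a smaller part of the pools with vaccine, and the part of this mix in the value was not tested. The summed list overlapped between the groups in both whole-tumor and Percoll libraries, at 9192 ± 5422 CPM with and 11061 ± 3022 without vaccine in the former and 9483 ± 2605 against 9692 ± 4079 in the latter. *Acta2* ran from 1258 to 4223 CPM over the pools, highest in Anti-CTLA-4.

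Of 22 genes of the inflammatory fibroblast list tested, 7 had an unadjusted *P* under 0.05, all higher with PancVAX, against 5.46% of all genes in either direction. The groups did not overlap for 3 of the 22, against 3.37% of all genes, and the median log2 fold change was 0.36. The inflammatory fibroblast-like cluster made up 17.1% ± 5.01 of the members with and 21.9% ± 4.15 without vaccine (n = 4 pools each). *Tnfaip6*, a secreted hyaluronan-binding protein induced by inflammatory cytokines, was at 867, 444, 751 and 754 CPM with vaccine and between 301 and 391.9 without (log2 fold change 1.00, edgeR adjusted *P* = 0.356). *Cxcl1*, a neutrophil chemokine, was at 653, 681, 1847 and 915 CPM with vaccine and at 280, 539, 442 and 517 without (1.14, edgeR adjusted *P* = 0.670). *Il6*, a cytokine commonly used to mark inflammatory fibroblasts, was at 65.8 ± 19.2 CPM with and 41.1 ± 8.66 without vaccine (0.73, edgeR adjusted *P* = 0.894), with overlapping groups. *Cxcl1* also ran higher in Percoll than in whole-tumor libraries, as described below, and the Percoll part of a pool's member UMIs was 36.8% to 55.3% with vaccine and 10.6% to 45.8% without. The list's sums overlapped within preparations, at 7830 ± 3669 CPM with against 6499 ± 1465 without vaccine in whole-tumor and 11414 ± 2455 against 7884 ± 594 in Percoll libraries. Both neutrophil markers tested were higher with vaccine at an unadjusted *P* under 0.05 (median log2 fold change 1.31), and the 8 macrophage markers tested had a median of 0.54. The part of the preparation and of other cells' RNA in these differences was not tested.

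The stress and immediate early genes, a list of heat shock and *Fos* and *Jun* family genes known to respond to tissue dissociation, separated the groups most often. All 16 were tested, and 7 (*Atf3*, *Fosb*, *Hspa1b*, *Egr1*, *Junb*, *Jun* and *Fos*) lay higher in every pool with PancVAX than in any without, against 3.37% of all genes whose groups did not overlap. *Atf3*, a stress-induced transcription factor, was at 281, 348, 330 and 491 CPM with vaccine and at 169, 206, 220 and 254 without (log2 fold change 0.75, edgeR adjusted *P* = 0.353). The list summed to 13636 ± 1152 CPM with and 10202 ± 1030 without vaccine (n = 4 pools each). Within preparations the groups overlapped, at 12113 ± 2541 against 9011 ± 1876 CPM in whole-tumor libraries and 15184 ± 3214 against 13068 ± 2425 in Percoll libraries. All 16 also had higher fitted levels in Percoll than in whole-tumor libraries (median log2 fold change 0.36, lowest 0.14, 7 at an unadjusted *P* under 0.05, against 8.11% of all genes), and the Percoll part of a pool's member UMIs was 36.8% to 55.3% with vaccine against 10.6% to 45.8%. In endothelial cells the sums did not overlap either, at 12053 to 14308 CPM with and 9376 to 10568 without vaccine, while the *Krt8*/*Krt18* set stood at 15633 ± 359 against 15422 ± 768 and the *Ptprc* set at 9809 ± 636 against 9500 ± 320. *Atf3* alone had a log2 fold change of 0.55 in whole-tumor libraries alone (edgeR adjusted *P* = 0.957) and 0.54 with preparation as a covariate (adjusted *P* = 0.779). The part of the preparation in these values was not tested.

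**Figure D4:**
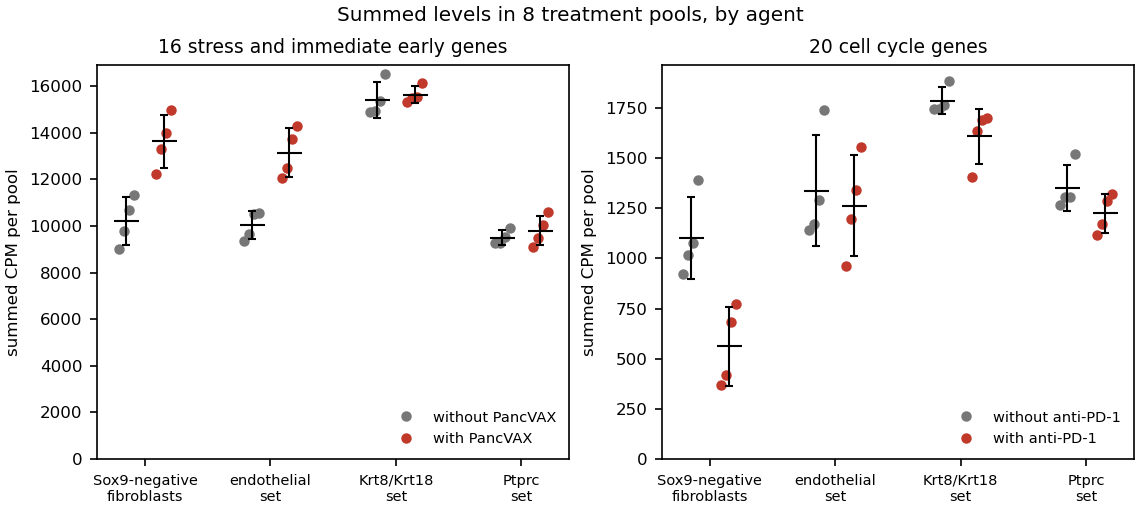
Summed CPM per treatment pool (y axes) of 16 stress and immediate early genes with and without PancVAX (left) and of 20 cell cycle genes with and without anti-PD-1 (right) in 4 cell sets (x axes), with points for pools and bars for mean ± SD. The fibroblast pools did not overlap in either panel (13636 against 10202 CPM, and 561 against 1103 CPM), nor did the endothelial stress sums (12053 to 14308 against 9376 to 10568 CPM) or the *Krt8*/*Krt18* cell cycle sums (1407 to 1701 against 1746 to 1887 CPM).

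Interferon-stimulated genes are shown with promoter sequence because a known interferon response element occurs in many of their promoters. The element, GAAA followed after any 2 bases by a second GAAA, searched on both strands with overlapping matches kept, was present in 1079 of 27025 RefSeq promoters (3.99%; GRCm38.p6, 250 bases before to 50 after the gene start), in 18 of 30 of the interferon list (60%) and in 4 of 14 of the MHC class I list (28.6%). It was also in 2 of 16 inflammatory fibroblast promoters (12.5%) and 1 of 12 contractile promoters (8.33%). None of 11 collagen and none of 17 cell cycle promoters held it. The sequences run 5′ to 3′ on the gene's strand, with matches in capitals.
*Isg15* (chr4:156200769-156201068, minus strand): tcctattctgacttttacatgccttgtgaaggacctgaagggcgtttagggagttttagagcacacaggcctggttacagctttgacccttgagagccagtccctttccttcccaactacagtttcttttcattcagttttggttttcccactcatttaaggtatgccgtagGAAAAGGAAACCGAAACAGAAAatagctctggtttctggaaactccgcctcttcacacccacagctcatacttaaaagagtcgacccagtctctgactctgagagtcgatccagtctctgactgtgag
*Cxcl10* (chr5:92348840-92349139, minus strand): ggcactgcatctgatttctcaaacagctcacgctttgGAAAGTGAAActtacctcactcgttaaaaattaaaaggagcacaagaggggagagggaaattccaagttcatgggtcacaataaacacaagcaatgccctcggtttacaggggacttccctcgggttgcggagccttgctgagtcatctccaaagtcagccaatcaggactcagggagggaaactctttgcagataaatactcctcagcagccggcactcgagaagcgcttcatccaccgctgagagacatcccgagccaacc
*B2m* (chr2:122147437-122147736, plus strand): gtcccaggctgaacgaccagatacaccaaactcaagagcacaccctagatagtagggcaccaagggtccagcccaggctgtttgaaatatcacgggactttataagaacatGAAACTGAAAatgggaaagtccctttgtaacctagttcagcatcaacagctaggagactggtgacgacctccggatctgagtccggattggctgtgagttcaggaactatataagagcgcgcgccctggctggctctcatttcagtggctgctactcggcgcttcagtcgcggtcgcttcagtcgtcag
A match is a description of these letters and not a binding site.

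The promoter with 3 matches belonged to *Isg15*, a ubiquitin-like protein, which stood at 245 ± 138 CPM with PancVAX and 290 ± 139 without. *Cxcl10*, a T cell chemokine with 1 match, was at 92.4, 113, 53.1 and 128 CPM with vaccine and at 98.7, 760, 304 and 163 without, with overlapping groups (log2 fold change −1.70, edgeR adjusted *P* = 0.730). The fitted difference of *Cxcl10* was −0.97 without the Anti-PD-1 pool and −1.02 without the Anti-CTLA-4 pool. *Cxcl9* was highest in Anti-PD-1 + Anti-CTLA-4 at 628 CPM and lowest in PancVAX + Anti-PD-1 at 96.7 CPM. Of 33 interferon-stimulated genes tested, 4 had an unadjusted *P* under 0.05, all lower with PancVAX, against 5.46% of all genes in either direction. Their median log2 fold change was −0.24, against −0.0018 over all genes. *B2m*, the light chain of MHC class I, was at 1086 ± 161 CPM with vaccine and 1064 ± 39.8 without, and *H2-K1* ran from 648 to 954 CPM over all pools. Of 16 class I genes tested, 1 had an unadjusted *P* under 0.05 (*Psme2*, a proteasome activator subunit, lower with vaccine). *Cd274*, the gene of the PD-1 ligand PD-L1, lay between 0.765 and 12.8 CPM in the fibroblast pools, against 10.3 to 21.5 in the *Krt8*/*Krt18* set and 53.2 to 79.0 in the *Ptprc* set.

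With anti-PD-1, 0 of 19 cell cycle genes tested were called by edgeR. Of these, 10 had an unadjusted *P* under 0.05, all lower, against 5.25% of all genes in either direction, and 6 had groups that did not overlap against 3.12% of all genes. The cycling cluster, 0 to 7 cells a pool, raised 17 of the list's 20 genes, so these counts are not of independent genes. The list summed to 4420 CPM in that cluster, 1249 in the *Rgs5* cluster and 119 to 324 in the others. The median log2 fold change was −1.01 (range −1.87 to 0.36) against 0.0023 over all genes. *Mki67*, a marker of proliferating cells, was at 6.16, 48.9, 35.0 and 25.9 CPM in Anti-PD-1, Anti-PD-1 + Anti-CTLA-4, PancVAX + Anti-PD-1 and the triple treatment, and at 73.7, 64.7, 64.4 and 57.7 in isotype control, Anti-CTLA-4, PancVAX and PancVAX + Anti-CTLA-4 (log2 fold change −1.01, unadjusted *P* = 0.0129). The list summed to 561 ± 196 CPM with and 1103 ± 203 without anti-PD-1 (n = 4 pools each). Within preparations the groups overlapped, at 474 ± 158 against 959 ± 465 CPM in whole-tumor and 721 ± 547 against 1207 ± 413 in Percoll libraries. In the *Krt8*/*Krt18* set the sums were 1609 ± 138 against 1787 ± 67.5 CPM and did not overlap either (1407 to 1701 against 1746 to 1887). They overlapped in the *Ptprc* set, at 1224 ± 96.5 against 1350 ± 116, and in endothelial cells, at 1264 ± 250 against 1337 ± 277. The cycling cluster did not follow the sums throughout: it was empty in Anti-PD-1 but held 7 of 37 cells in PancVAX + Anti-PD-1, whose sum was 419 CPM. The levels weight cells by their UMIs and the shares do not.

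With anti-PD-1, 3 of 5 class II genes and 4 of 12 pericyte genes tested had an unadjusted *P* under 0.05, all higher, against 5.25% of all genes in either direction. *H2-Ab1*, a class II chain, was at 36.9, 31.9, 96.7 and 94.5 CPM in the 4 anti-PD-1 pools listed above and at 19.2, 54.9, 26.0 and 14.1 in the others (log2 fold change 1.15, unadjusted *P* = 0.0448). The class II list had a median log2 fold change of 1.28. The macrophage list moved alongside, with 3 of 8 tested genes higher at that threshold, a median of 0.96, and sums of 49.8, 129, 694 and 543 CPM in the anti-PD-1 pools against 80.8, 501, 127 and 72.6. The pools with the most class II (1103 CPM in PancVAX + Anti-PD-1 and 807 in the triple treatment) were those with the most macrophage RNA. Its part in the class II values was not tested.

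*Rgs5* was at 182, 637, 2748 and 873 CPM in the anti-PD-1 pools and 483, 487, 360 and 396 in the others, so the lowest of the 8 pools was also one with anti-PD-1. The highest sum of the pericyte list (5124 CPM) was in PancVAX + Anti-PD-1, the pool with 24.3% of its cells in the *Rgs5* cluster. *Cox4i2*, an isoform of a cytochrome c oxidase subunit, had groups that did not overlap, at 70.8 to 368 CPM with and 31.1 to 42.7 without anti-PD-1. Within preparations the pericyte sums overlapped, at 2376 ± 2142 against 860 ± 283 CPM in whole-tumor and 2198 ± 1865 against 1377 ± 147 in Percoll libraries. Of 9 endothelial markers 3 were tested, and 2 of these were higher at an unadjusted *P* under 0.05, against 5.25% of all genes in either direction. Their median log2 fold change was 1.3. This list was not separate from the *Rgs5* cluster, which had the endothelial marker *Esam* among its 10 leading genes. The 5 endothelial genes with at least 20 UMIs summed to 353 CPM in that cluster and to 15.4 to 47.5 CPM in the others. The part of the cluster in the endothelial values was not tested. All 12 pericyte genes also had higher fitted levels in Percoll than in whole-tumor libraries (log2 fold change 0.15 to 1.19, 4 at an unadjusted *P* under 0.05, against 8.11% of all genes), and the Percoll part of a pool's member UMIs was 37.4% to 55.3% with anti-PD-1 and 10.6% to 47.3% without. The part of endothelial RNA and of the preparation in the pericyte values was not tested. *Itm2a*, a membrane protein gene, was at 446, 381, 323 and 300 CPM with anti-PD-1 and between 520 and 868 without (log2 fold change −0.87, edgeR adjusted *P* = 0.158), and was called by DESeq2 over the same members. With the cycling cluster left out, edgeR called *Itm2a* too (−1.06). That alternative was chosen after seeing the data.

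With anti-CTLA-4 no list had more than 3 genes in 1 direction at an unadjusted *P* under 0.05. *Cxcl14*, a chemokine of fibroblasts, was at 493, 398, 1105 and 572 CPM in Anti-CTLA-4, Anti-PD-1 + Anti-CTLA-4, PancVAX + Anti-CTLA-4 and the triple treatment, and at 1190, 650, 1538 and 1983 in isotype control, Anti-PD-1, PancVAX and PancVAX + Anti-PD-1 (log2 fold change −1.13, edgeR adjusted *P* = 0.959). It was lower in each of the 4 matched pairs although the groups overlapped, and DESeq2 called it. Of 22 inflammatory fibroblast genes tested, 3 were higher and 1 lower at an unadjusted *P* under 0.05, against 4.67% of all genes in either direction. The list's median log2 fold change was 0.19 (range −1.30 to 1.32). The 3 higher genes were the chemokines *Ccl2*, *Ccl7* and *Ccl8*, with *Ccl2* at 873 ± 371 CPM with and 542 ± 99.5 without anti-CTLA-4. *Cxcl9* had groups that did not overlap, at 334 ± 207 against 146 ± 36.5 CPM, as 3.52% of all genes did. The groups lay next to each other at PancVAX + Anti-CTLA-4 (176.4 CPM) and Anti-PD-1 (175.5 CPM), and 1 pool, Anti-PD-1 + Anti-CTLA-4, reached 628 CPM. In CPM without TMM scaling the groups overlapped, with PancVAX + Anti-CTLA-4 at 172.8 and Anti-PD-1 at 177.4.

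A further test asked whether the PancVAX effect differed between the *Sox9*-negative and *Sox9*+ fibroblasts. The interaction was called for 0 of 7669 genes (0%) by edgeR, with 202 (2.63%) at an unadjusted *P* under 0.05, and for 1 gene by DESeq2. That gene, *Mgp*, encodes an inhibitor of calcification (edgeR interaction 1.91 on the log2 scale, adjusted *P* = 0.854). The PancVAX + Anti-PD-1 pool was left out, having 7 *Sox9*+ cells. In the *Krt8*/*Krt18* set *Sox9* was at 660 ± 147 CPM with and 431 ± 26.9 without vaccine. The part of those cells' RNA in the split between *Sox9*-negative and *Sox9*+ fibroblasts was not tested.

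The preparations were compared in the 6 treatments with at least 10 members in both libraries, which leaves out isotype control and Anti-PD-1. Of 6582 genes, edgeR with treatment as a block called 1 (0.0152%), with 534 (8.11%) at an unadjusted *P* under 0.05 and 355 (5.39%) in the same direction in all 6 treatments. The called gene, *Lars2*, encodes the mitochondrial leucyl-tRNA synthetase. Its level in whole-tumor and Percoll libraries was 2735 and 1610 CPM (Anti-CTLA-4), 1666 and 855 (Anti-PD-1 + Anti-CTLA-4), 2993 and 1669 (PancVAX), 2600 and 1393 (PancVAX + Anti-PD-1), 2473 and 1341 (PancVAX + Anti-CTLA-4), and 2445 and 1761 (triple treatment). It fell in all 6, from 2485 ± 449 to 1438 ± 329 CPM (log2 fold change −0.79 ± 0.10 SE, edgeR adjusted *P* = 0.0486). The call did not hold without the block. With 1 treatment left out, *Lars2* was called only without the triple treatment, as 1 of 4 genes. No gene was called without PancVAX, PancVAX + Anti-CTLA-4, Anti-PD-1 + Anti-CTLA-4 or Anti-CTLA-4, and without PancVAX + Anti-PD-1 the 1 gene called was *Gm42418*.

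Further genes had the same direction in all 6 treatments without passing. *Gadd45b*, a stress-induced growth arrest gene, was at 331 ± 71.6 CPM in Percoll and 166 ± 37.1 in whole tumor (log2 fold change 1.00, edgeR adjusted *P* = 0.0512). *Gm42418*, which overlaps ribosomal RNA sequence, and *Malat1*, a nuclear noncoding RNA, were lower (−0.78 and −0.62, adjusted *P* = 0.0800 for both). Of the listed genes, the smallest *P* values belonged to *Ccl5*, a T cell chemokine at 11.4 CPM over the members (lower, −3.29, adjusted *P* = 0.125), and the WNT ligand *Wnt2* (lower, −0.94, adjusted *P* = 0.135). *Dnajb1*, a heat shock gene, and *Cxcl1* were higher (0.74 and 1.21, adjusted *P* = 0.307 for both). Over all 8 treatments *Gadd45b* was also higher in Percoll in 8 of 8 pairs of the *Krt8*/*Krt18* and *Ptprc* sets, and *Lars2* was lower in 8 of 8 pairs of both. In the fibroblasts *Lars2* was lower in 7 of 8 pairs. *Malat1* was lower in 7 of 8 pairs of the fibroblasts but in 0 of 8 of the *Krt8*/*Krt18* set, where it stood at 4453 ± 826 CPM in Percoll and 3522 ± 434 in whole tumor.

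**Figure D5:**
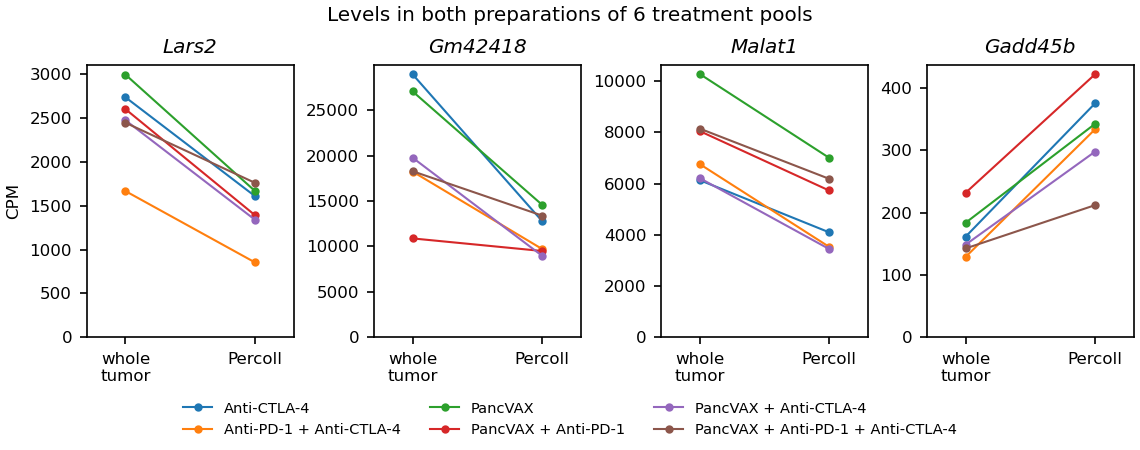
CPM (y axes) of *Lars2*, *Gm42418*, *Malat1* and *Gadd45b* in Sox9-negative fibroblasts of whole-tumor and Percoll libraries (x axes) of 6 treatments, with lines joining the libraries of a treatment. All 6 lines fall for the first 3 genes and rise for *Gadd45b*, and edgeR called *Lars2* alone.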

How the data were processed

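Single-cell suspensions were profiled with a 10x Genomics 5′ kit. The authors deposited raw UMI counts per gene and barcode for 16 RNA libraries. The processing notes name Cell Ranger 4.0.0, Seurat and mm10, and T cell receptor contigs were deposited for 8 Percoll libraries. Barcodes were assigned to libraries by their number suffix, matched to the number in the labels. Doublets were not called, no upper UMI limit was set, and 262 members (68.4%) had over 10000 UMIs.

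UMIs of members were summed by treatment (both libraries) and fitted in edgeR 4.0.16 with a term for each of the 3 agents, filterByExpr, TMM and Benjamini-Hochberg adjustment. Each treatment is 1 pool of mice, and no combination of agents was repeated. The fit had no term for interactions of agents, so the *P* values for agents rest on effects that add up. The spread they measure is that between pools together with any such interaction. For Percoll the *P* values measure the spread of the paired differences between treatments. Percoll and whole-tumor libraries were fitted by library with treatment as a block, since each pair shares its treatment in the labels. Deviations of the paired libraries from their preparation means correlated at −0.068 to 0.124. Shares were tested by exact permutation. Clusters came from scanpy 1.11.5 (2000 variable genes, 15 components, Leiden resolution 0.6, seed 1). Scripts were tested on simulated data. DESeq2 1.42.0, other normalization, no filter, other gates and left-out pools were the alternatives.

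Named genes were planned as 31 listed markers and chemokines, up to 12 rises and 12 falls past the threshold, and list members past it. No agent had a gene past it. Genes of lowest *P* in each main fit, and genes called under an alternative other than no filter, were added after their values were seen. Members and lists were chosen with earlier results of these data known.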

Additional observations from a re-analysis of the deposited data

Results flagged for a closer look

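Library shares and single genes over the 8 pools were looked at, 39 groups of values in all. Of these, 6 had 1 value far from the others by Dixon's criterion, which chance alone meets in about 1 of 20 groups. All 6 were single genes, and no group of shares was flagged. The PancVAX + Anti-PD-1 pool was the outlying one for *Rgs5* (2748 CPM, median of pools 485), *Cxcl12* (485.4 CPM, median 191) and *Tgfb1* (240.6 CPM, median 138). This pool also had the largest part of *Rgs5*-cluster cells (24.3%) and held the shallowest library. *Cxcl1* was far from the others in PancVAX + Anti-CTLA-4 (1847 CPM, median 596), *Cxcl9* in Anti-PD-1 + Anti-CTLA-4 (628.2 CPM, median 176) and *Cxcl10* in Anti-PD-1 (760.4 CPM, median 121), the pool with the fewest members (19).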

How the results depend on the processing

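Leaving out 1 library at a time moved the PancVAX share difference between −0.0238 (without Anti-PD-1) and 0.112 percentage points, with −0.0134 without PancVAX, so its sign was not fixed. The *Sox9*-negative part reversed from −3.17 to 1.45 percentage points with both libraries summed and to 3.46 under the study's upper UMI and gene limits. Under those limits the Percoll share difference was −0.141 (exact permutation *P* = 0.0547). Counts of called genes for the vaccine, anti-PD-1 and anti-CTLA-4 were 7, 3 and 1 by DESeq2 and 37, 53 and 2 with no filter on low counts (16668 genes). With 1 treatment left out they ran from 0 to 2 (2 without PancVAX + Anti-PD-1, *Tnfaip6* and *Cxcl3*, and 1 without Anti-PD-1 + Anti-CTLA-4, *Tnn*), 0 to 1 (*Mcpt1*, without PancVAX + Anti-PD-1) and 0 to 1 (*Mest*, without isotype control). For PancVAX, 1 gene was called with libraries fitted and preparation as a covariate (*Sgk1*), 1 in whole-tumor libraries only (*Serpinb2*) and 1 without the *Rgs5* cluster (*Actg2*, −3.35). For anti-PD-1, 1 was called without the cycling cluster. Leaving out these clusters, or the shallow Percoll library (0 calls for each agent), was chosen after seeing the data. The PancVAX interaction gave 1 gene by DESeq2 and 23 with no filter. For Percoll the 1 call became 4 by DESeq2, 2 with RLE scaling, 124 with no filter, 0 with no replicate block (the pairing by treatment left out) and 0 to 4 with 1 treatment left out: 0 without PancVAX, PancVAX + Anti-CTLA-4, Anti-PD-1 + Anti-CTLA-4 or Anti-CTLA-4, 1 without PancVAX + Anti-PD-1 (*Gm42418*, not *Lars2*) and 4 without the triple treatment. The Percoll and interaction fits could not be run under the upper limits, which left too few members. RLE scaling, a collagen gate at 20 per 10000 and any *Sox9* count gave 0 calls for each agent. The upper limits also gave 0, but left only 5 pools with 10 or more members, 1 of them without vaccine, and 2030 genes, so that 0 says little. Of 788, 697, 679 and 369 values of single genes under alternatives (vaccine, anti-PD-1, anti-CTLA-4, Percoll), 75, 91, 79 and 17 had the opposite sign, none with a call. The causes of these moves were not tested. With 19 to 69 members a pool, depth limits what low genes can show.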

Other observations

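Granzymes *Gzmc*, *Gzmd*, *Gzme*, *Gzmf* and *Gzmg*, known from cytotoxic lymphocytes, were counted in members after *Gzmd*, *Gzme* and *Gzmc* were seen to lead the *Cnn1* cluster. At least 5 UMIs of these 5 genes were present in 40 of the 383 members, with a median of 20 and a highest count of 561 UMIs. Of the 40 cells, 19 were in the *Cnn1* cluster, and 27 had no UMI of any of 8 T and NK cell genes. The other 13 (32.5%) had such a UMI, against 59 (15.4%) of all members. They came from 15 of the 16 libraries and all 8 pools.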
